A study of Caenorhabditis elegans with 3 samples.

Results

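The genes described here encode the cyclins and cyclin-dependent kinase (CDK) inhibitors that drive and restrain the cell cycle of Caenorhabditis elegans. They are 9 of the 19985 annotated protein-coding genes and were chosen by symbol: the M phase cyclins cyb-1, cyb-2.1, cyb-2.2 and cyb-3, the G1 and S phase cyclins cyd-1, cye-1 and cya-1, and the CDK inhibitors cki-1 and cki-2. All 9 symbols were found in the annotation. The assay was chromatin immunoprecipitation with sequencing (ChIP-seq) of DPL-1, done on whole young adult hermaphrodites of strain YL507. In this line DPL-1 carries GFP and FLAG at its C-terminus, and sonicated chromatin was recovered with an antibody to GFP. The 3 samples are biological replicates of this 1 group, with no untagged or input sample among them. The labels call the transgene an insertion targeting dpl-1 and name neither its promoter nor its copy number, and whole animals mix germ line and soma, which a peak list cannot separate.

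E2F transcription factors bind DNA together with a DP partner, of which DPL-1 is the worm's, and recruit pocket proteins such as LIN-35 that hold cell cycle genes down. Cyclins activate CDKs at set points of the cell cycle: D and E types act in G1 and at entry into S phase, A types in S phase and later, and B types at entry into and passage through M phase. CDK inhibitors of the Cip/Kip family, to which CKI-1 and CKI-2 belong, bind the complexes and halt the cycle. In mammals E2F controls cyclin E and cyclin A genes through sites in their promoters.

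DPL-1 peaks were reached from 5 deposited lists on build ce11. For each replicate there was a relaxed list, which also takes in background regions, of 28383 peaks in replicate 1 and 30000 peaks each in replicates 2 and 3. A relaxed list of 30000 peaks came from the pooled replicates. The list thresholded by the irreproducible discovery rate (IDR), a measure of how well peak ranks repeat, held 3295 peaks, and these were exactly the 3295 strongest of the pooled list. A peak's summit is its highest point, its signal is the authors' value of peak strength as deposited, and rank 1 is the strongest peak of a list. Signal scales differed between lists, so replicates were compared by rank. Read numbers per sample are not in these lists, so the depth is unknown.

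Sequences are shown for 3 of the 4 members with an E2F-like word within 50 bp of a DPL-1 summit, cyb-1, cyb-3 and cki-2 (the stretch at the other, cye-1, is not printed here), and for cyd-1, which had such a word close upstream but no peak in the pooled list. The first word searched was TTCCCGC, with TTCGCGC as the next, and the other words were TTGCCGC and, last, TTGGCGC. Either strand counted, and capitals mark the words. The stretches come from the RefSeq WBcel235 assembly (ce11), read 5' to 3' on the plus strand, which is the coding strand of all 4 genes. For cyb-1 the stretch is the 201 bases centred on the IDR summit (chrIV:10734643-10734843), and for cyb-3 likewise (chrV:15395432-15395632). For cki-2 it is the 194 bases around the pooled summit that end at the base before the gene (chrII:7816305-7816498), and for cyd-1 the 101 bases around the word (chrII:12980476-12980576).
cyb-1: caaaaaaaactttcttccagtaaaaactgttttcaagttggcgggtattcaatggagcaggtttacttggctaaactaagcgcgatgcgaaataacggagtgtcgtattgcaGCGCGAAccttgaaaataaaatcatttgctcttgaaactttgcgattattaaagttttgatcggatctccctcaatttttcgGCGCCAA
cyb-3: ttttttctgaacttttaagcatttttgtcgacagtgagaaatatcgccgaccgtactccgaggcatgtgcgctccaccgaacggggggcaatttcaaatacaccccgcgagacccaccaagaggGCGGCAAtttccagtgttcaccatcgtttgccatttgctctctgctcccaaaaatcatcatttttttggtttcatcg
cki-2: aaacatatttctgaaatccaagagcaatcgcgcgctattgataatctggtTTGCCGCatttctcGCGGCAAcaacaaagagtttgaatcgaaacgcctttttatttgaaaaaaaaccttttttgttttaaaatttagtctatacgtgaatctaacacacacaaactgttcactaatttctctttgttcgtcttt
cyd-1: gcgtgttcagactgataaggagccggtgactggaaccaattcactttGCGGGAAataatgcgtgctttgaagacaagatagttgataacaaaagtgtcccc

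In the cyb-1 stretch the words were centred 458 bp and 376 bp upstream of the gene's 5' end, both on the minus strand. The cyb-3 stretch had 1 word, 137 bp upstream. The cki-2 stretch had the same word TTGCCGC on both strands, facing each other with centres 14 bp apart, 141 bp and 127 bp upstream. The cyd-1 word, TTCCCGC on the minus strand, lay 65 bp upstream. These are matches of letters and were not tested as binding sites.

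DPL-1 peaks that passed the IDR threshold lay upstream of the M phase cyclin genes cyb-1 and cyb-3, and upstream of the G1 and S phase cyclin gene cye-1 just past the distance used to assign peaks. A gene was counted as having a peak when a summit lay within 500 bp of its annotated 5' end, which in worms is often a trans-splice site and not the start of transcription. By this measure 2 of the 9 members had an IDR peak (22.2%), against 2351 of all 19985 protein-coding genes (11.8%). Within 1000 bp 3 members had one (33.3%), against 14.7% of all genes, the third being cye-1. The members' counts are small, and a difference of 1 gene moves their share by more than the gap to the share of all genes at 500 bp. Counting only IDR peaks also in the top 3295 of the remaining replicates, 1 member, cyb-1, was left without replicate 2 and without replicate 3. Both cyb-1 and cyb-3 were left without replicate 1. The share of all genes was then 7.58% without replicate 1, 6.28% without replicate 2 and 7.32% without replicate 3. The relaxed pooled list, in which 33.0% of all genes had a peak within 500 bp, held 4 of the 9 members, namely cyb-1, cyb-3, cki-2 and cye-1.

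The replicate lists added peaks that were mostly weak, most of them not shared by all 3 replicates. In replicate 1, 4 members had a relaxed peak within 500 bp (cyb-1, cyd-1, cya-1 and cki-2), against 33.0% of all genes. In replicate 2, 5 members had one (cyb-1, cyb-2.1, cyb-2.2, cyb-3 and cki-2), against 34.7% of all genes. Replicate 3 had the same 5 members, against 36.0% of all genes. In each of the 3 replicates, only cyb-1 and cki-2 of the 9 members had one (22.2%), against 18.8% of all genes. The map of summits around the 5' ends shows the strong summits that all 3 replicates shared at cyb-1 and cye-1, the cyb-3 summit of replicates 2 and 3, and, at the other 6 members, summits with no IDR peak.

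**Figure D1:**
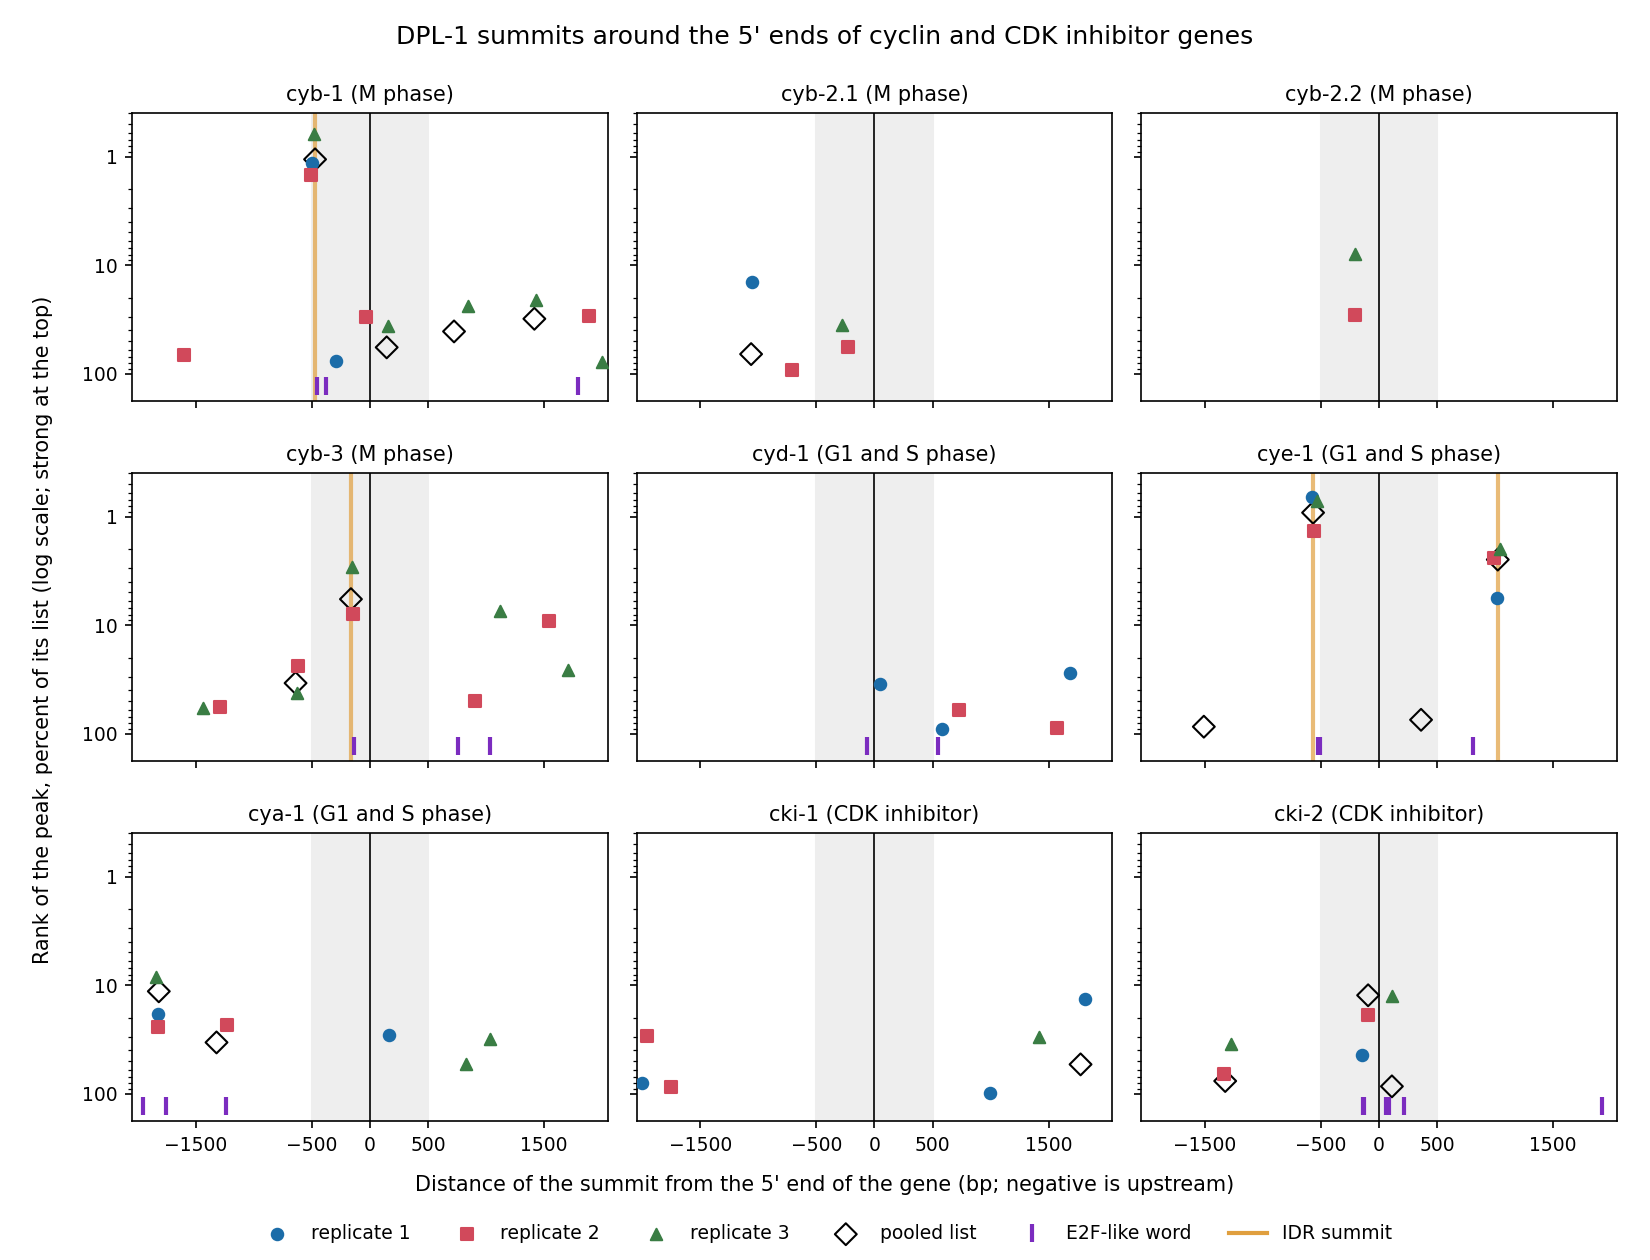
Each panel plots 1 gene: the x axis is the distance of a summit from the gene's 5' end in bp (negative is upstream) and the y axis is the peak's rank as a percent of its list on a log scale, strong at the top. Filled symbols are the replicates, open diamonds the pooled list, orange lines IDR summits, purple ticks E2F-like words and the grey band the 500 bp window. The summits that match the upstream IDR peaks of cyb-1 and cye-1 rank within the top 1.49% in every replicate. Other upstream cyb-1 summits are weaker, and the cki-1 panel has no summit in the band.

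The strongest 5' end peak among the members was that of cyb-1, which encodes a B-type cyclin that partners CDK-1 in mitosis and meiosis (WBGene00000865, IV, 10735216 to 10737177, plus strand). The IDR peak spanned 10734620 to 10734820, with its summit 473 bp upstream in sequence with no annotated gene. Its signal was 229 and its rank 317, above 85.2% of the 1833 IDR peaks at the 5' ends of genes and 2.34-fold their median signal of 97.98. The matching peak had ranks of 326, 446 and 186 in replicates 1, 2 and 3, on average the top 1.09% ± 0.437 of the list (SD, n = 3). All 3 replicates put it among their strongest 3295 peaks, as they did for 48.9% of the IDR peaks at 5' ends.

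The cyb-1 summit lay nearer to another gene, orc-5, a subunit of the origin recognition complex that marks where DNA replication starts. The 2 genes point away from each other across 627 bp, and the summit was 155 bp from the 5' end of orc-5. In the replicates the summit was 497 bp, 507 bp and 479 bp from the 5' end of cyb-1, so in replicate 2 it fell just outside the window, where a weak peak 31 bp upstream with rank 9077 stood in for it. RefSeq starts cyb-1 226 bp further downstream, which puts the IDR summit 699 bp away. Whether the peak serves cyb-1, orc-5 or both cannot be told apart from peak positions.

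The closest likeness to the ranks of cyb-1 over the 3 replicates, among 1881 genes with another IDR 5' end peak matched in all 3, was found for mog-4, which encodes an RNA helicase of the spliceosome. Its peak had ranks of 373, 537 and 207 in replicates 1, 2 and 3, at a distance of 0.110 in log10 rank. Next were pkhm-2, with ranks of 307, 556 and 209 and a distance of 0.111, and dnj-28, which encodes a J-domain protein, with ranks of 371, 361 and 202 and a distance of 0.113. The same peak as that of dnj-28 also served supr-1. None of these genes is a cyclin, a CDK inhibitor or a member of the lists of related genes used here.

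The peak of cyb-3, which encodes the B3 cyclin needed in worms for sister chromatids to separate, was nearer to its own gene and weaker (WBGene00000868, V, 15395696 to 15397353, plus strand). The IDR peak spanned 15395380 to 15395683, with its summit 164 bp upstream of cyb-3 and 571 bp from T06E6.1, the gene that faces away from it across 734 bp. Its signal was 80.68 and its rank 1729, above 38% of the IDR peaks at 5' ends and 0.823-fold their median. The peak ranked 2385 in replicate 2 and 866 in replicate 3, with summits 146 bp and 158 bp upstream. Replicate 1 had no summit within 100 bp of it, and the nearest was 2983 bp away. Of all 1833 IDR peaks at 5' ends, 256 (14%) likewise had no match in replicate 1.

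Within 500 bp the B-type cyclin genes cyb-2.1 and cyb-2.2 had peaks in replicates 2 and 3 only, and none in the pooled or the IDR list. For cyb-2.1 (WBGene00000866, IV, 10985985 to 10987426, plus strand) the peaks ranked 17188 in replicate 2 and 10705 in replicate 3, with summits 225 bp and 276 bp upstream. For cyb-2.2 (WBGene00000867, I, 4114861 to 4116370, plus strand) they ranked 8740 in replicate 2 and 2366 in replicate 3, with summits 206 bp and 204 bp upstream. The replicate 3 peak of cyb-2.2 was the strongest of these, within the 3295 strongest of that list, while replicate 1 listed no summit within 2000 bp of its 5' end. The genes are near-identical copies, 90.2% identical over the coding sequence and 95.4% over the 300 bp upstream, and their peaks are uncertain, because the sources used here do not say how reads that match both were placed.

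Among the G1 and S phase cyclins, cye-1 stood apart from cyd-1 and cya-1. It encodes cyclin E, the partner of CDK-2 at entry into S phase (WBGene00000871, I, 6780799 to 6784397, plus strand). An IDR peak at 6780128 to 6780355 had its summit 568 bp upstream of cye-1, just outside the 500 bp window, where the cyb-1 summit at 473 bp was just inside. Its signal of 248 and rank of 276 were the highest among the members, and in the replicates it ranked 186, 405 and 216, on average the top 0.908% ± 0.384 (SD, n = 3). The summit was 80 bp from the 5' end of pqn-21, which encodes a protein with a glutamine- and asparagine-rich domain and points away from cye-1 across 647 bp. As with cyb-1, the gene that the peak serves cannot be told apart from its position.

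A second IDR peak lay inside cye-1, at 6781780 to 6781900, in an intron 1023 bp downstream of the 5' end. It had a signal of 145 and a rank of 747, with ranks of 1606, 716 and 590 in replicates 1, 2 and 3. Its summit fell within a tRNA gene (WBGene00022955, 6781803 to 6781874), as did 164 of the 3295 IDR summits (4.98%), and no E2F-like word lay within 100 bp of it. The peak that placed cye-1 among the 4 members with a pooled peak within 500 bp was a different one, 362 bp downstream, with a signal of 10.32 and a rank of 22337, and no replicate listed a peak within 500 bp.

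The gene for cyclin D, cyd-1, which with CDK-4 promotes progress through G1, had no pooled or IDR peak within 500 bp (WBGene00000870, II, 12980591 to 12993117, plus strand). Replicate 1 alone listed a weak peak, 51 bp downstream with rank 9972. The nearest IDR summit was 33633 bp away, in the 5' UTR of F18A11.5. The annotation gives cyd-1 transcripts with starts 7632 bp apart, and RefSeq uses only the downstream one. Counting every transcript start did not add cyd-1 to the members with an IDR or a pooled peak.

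The A-type cyclin gene cya-1 had no pooled or IDR peak within 500 bp either (WBGene00000863, III, 9106699 to 9109272, minus strand). Replicate 1 alone listed a peak there, 166 bp downstream with rank 8099. Further upstream, a pooled peak with its summit 1819 bp from the 5' end had a signal of 44.22 and a rank of 3416, just below the lowest IDR signal of 45.7. All 3 replicates listed it, at ranks 5287, 7289 and 2515 and at distances of 1823 bp, 1823 bp and 1845 bp. No other protein-coding 5' end was nearer to this summit, and the nearest IDR summit to cya-1 was 5008 bp away, in a tRNA gene within an intron of dos-1.

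The 2 CDK inhibitor genes lie in tandem, with 5259 bp between their 5' ends, and differed from each other. At cki-2 (WBGene00000517, II, 7816499 to 7820281, plus strand), the pooled peak at 7816253 to 7816556 had its summit 94 bp upstream, a signal of 41.3 and a rank of 3719, below the lowest IDR signal. The strongest peak within 500 bp had ranks of 12534, 5627 and 3772 in replicates 1, 2 and 3. Its summit was 143 bp upstream in replicate 1 and 95 bp upstream in replicate 2. In replicate 3 it was another peak, 113 bp downstream, which lines up with a second and weaker pooled peak 111 bp downstream (signal 8.974, rank 25683), and replicate 3 had no summit within 100 bp of the stronger pooled one. At cki-1 (WBGene00000516, II, 7811240 to 7812105, plus strand), a Cip/Kip inhibitor that halts division in developing tissues, no list had a summit within 500 bp. The only summit within 1000 bp was in replicate 1, 993 bp downstream with rank 27982, among the weakest of that list. The nearest IDR summit was 29940 bp away at the 5' end of snpc-1.1.

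The signal of the members' peaks is set against that of all IDR peaks at 5' ends in the plot of the signal distribution. The upstream cye-1 and cyb-1 peaks lay above the upper quartile of 172, and the cyb-3 peak between the lower quartile of 65.1 and the median.

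**Figure D2:**
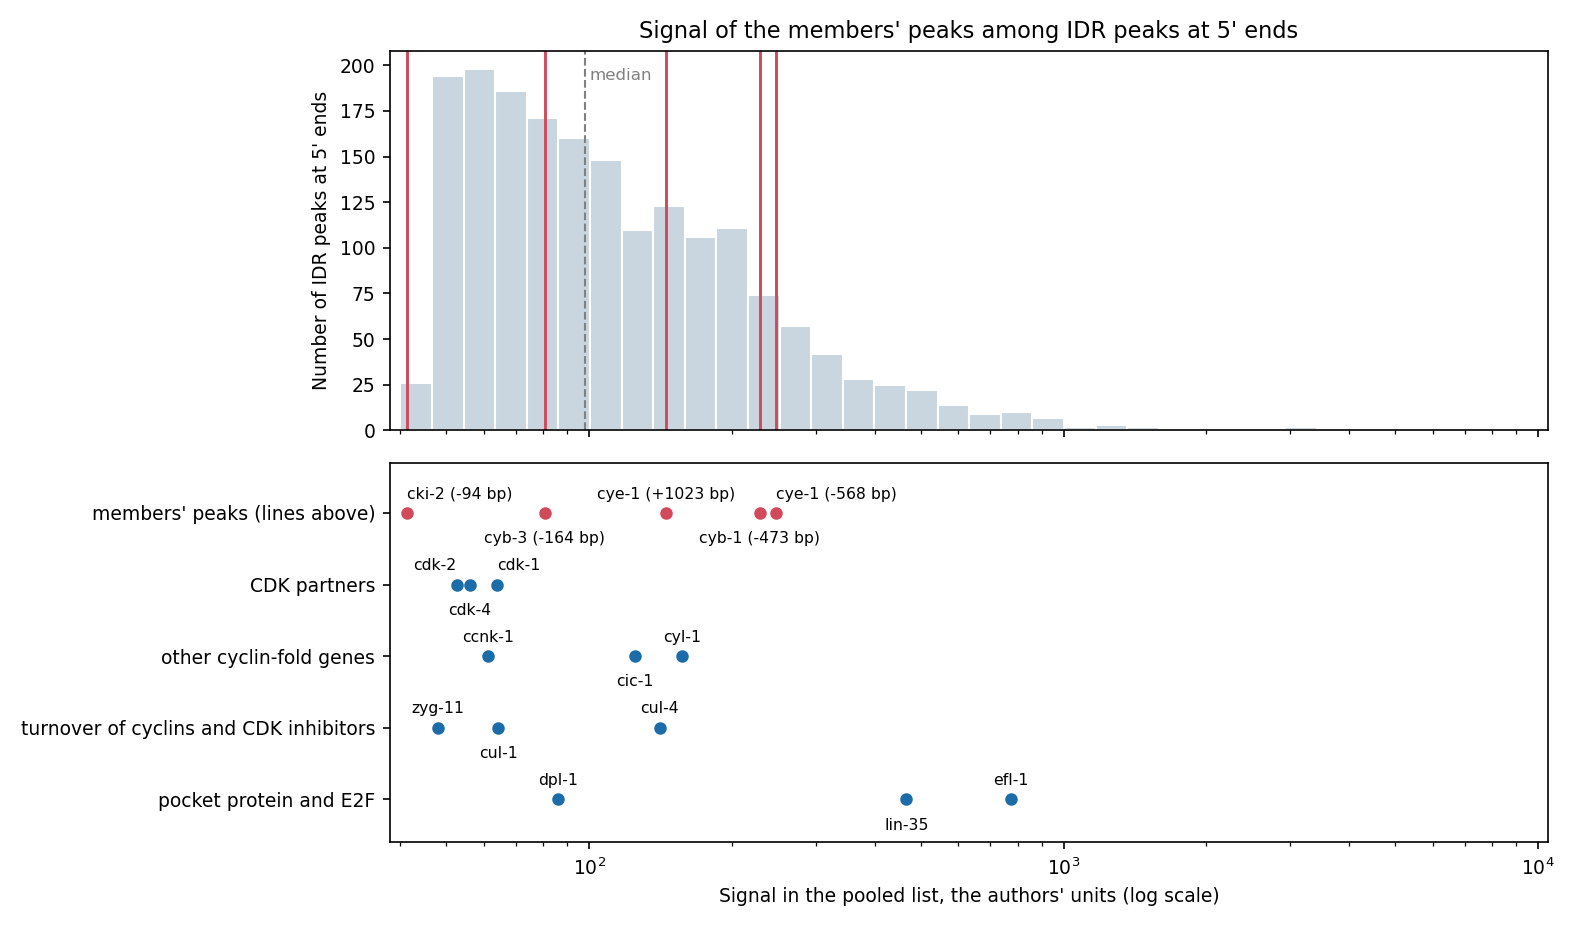
The upper panel is a histogram of the signal, in the authors' units on a log scale, of the 1833 IDR peaks whose summits lie at 5' ends (500 bp or less); red lines are the members' peaks and the dashed line is the median of 97.98. The lower panel gives the signal of the members' 5 peaks, with the distance of the summit from the 5' end, and of the IDR 5' end peaks of 4 lists of related genes; the cki-2 peak at 41.3 is below the IDR threshold, and both cye-1 peaks lie outside 500 bp.

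Whether DPL-1 marks M phase cyclin genes more strongly than G1 and S phase cyclin genes depended on the window. For each gene and replicate the rank of the strongest peak within the window was taken, with the rank after the end of the list for a gene with none, and log10 ranks were averaged over the 4 M phase and the 3 G1 and S phase genes. Within 500 bp the M phase cyclins averaged 3.97, 3.88 and 3.15 in replicates 1, 2 and 3, or 3.67 ± 0.45 (SD, n = 3). The G1 and S phase cyclins averaged 4.12, 4.48 and 4.48, or 4.36 ± 0.21. In replicates 2 and 3 none of these 3 genes had a peak within 500 bp. Both values of 4.48 are therefore the rank given for no peak and not a measured strength. A lower value is a stronger peak, so the M phase mean was the stronger in all 3 replicates. In replicate 1 it rested on cyb-1 alone, the summit at 497 bp that is nearer to orc-5: 1 of the 4 M phase cyclins had a peak there, against 2 of the 3 G1 and S phase cyclins.

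The difference, M phase minus G1 and S phase, was -0.15, -0.60 and -1.32, a mean of -0.69 ± 0.59 (SD, n = 3). The two-sided exact sign-change permutation test gave p = 0.25, the smallest that 3 replicates allow, so no call at 0.05 was possible. Without replicate 3 the mean difference was -0.38. Within 1000 bp, which takes in the cye-1 peak, the M phase cyclins averaged 3.97, 3.55 and 3.15, or 3.56 ± 0.41, and the G1 and S phase cyclins 3.39, 3.78 and 3.67, or 3.61 ± 0.20. The difference was then 0.58, -0.23 and -0.52, a mean of -0.06 ± 0.57 (exact permutation p = 1.0), which is smaller than the spread between replicates and was positive in replicate 1. The plot of ranks by window shows that the cye-1 peak alone entered at ranks near those of cyb-1.

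**Figure D3:**
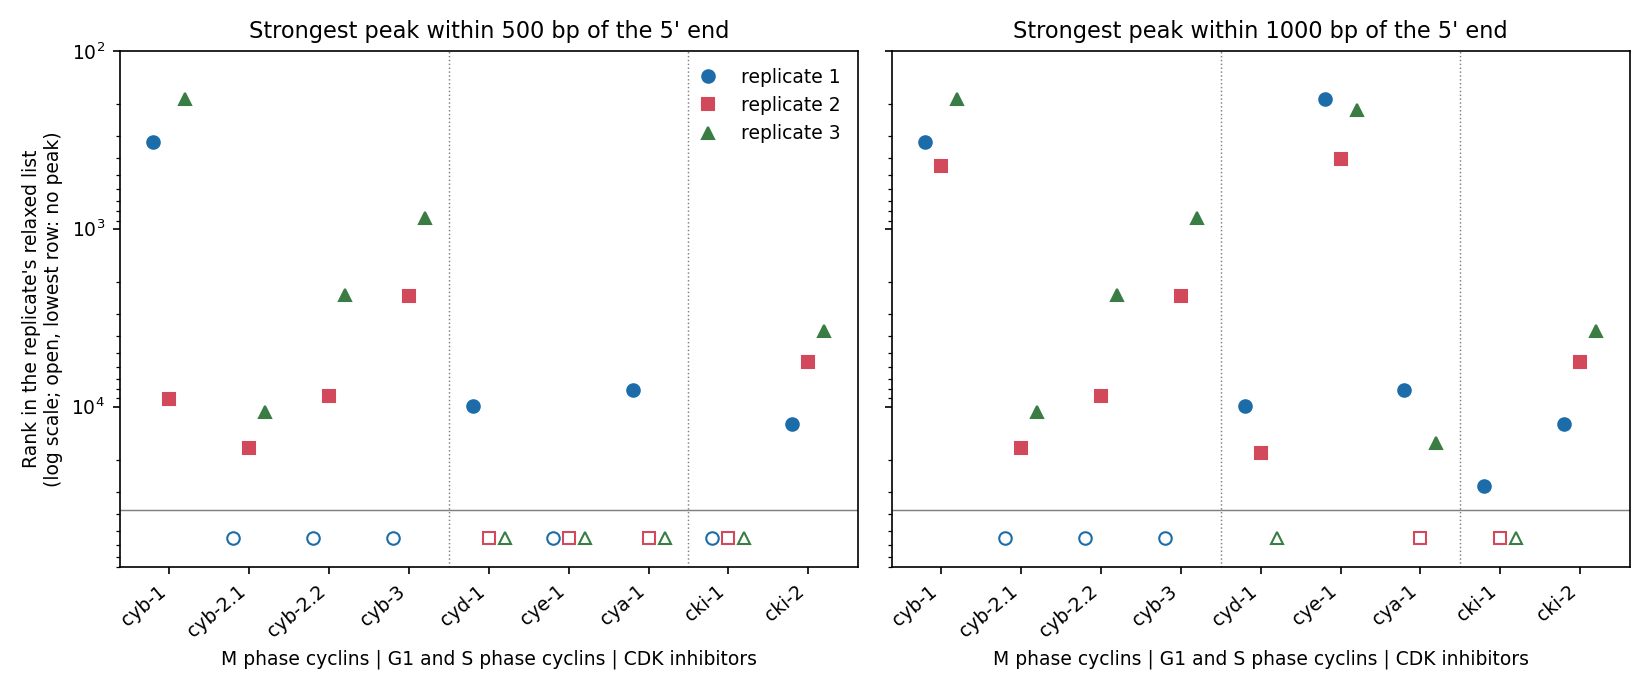
The y axis is the rank of the strongest peak in each replicate's relaxed list on a log scale (strong at the top), for summits within 500 bp (left panel) and 1000 bp (right panel) of the 5' end of each gene on the x axis; open symbols in the lowest row mark replicates with no peak. In the right panel cye-1 has ranks of 186, 405 and 216, and cyb-1 in replicate 2 has rank 446 in place of 9077.

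The genes next to the members' peaks share an arrangement that the choice of members did not use, and it was looked at after their values were seen. Of the 9 members, 3 have a protein-coding gene upstream that points away from them at most 1000 bp off, and these were cyb-1, cyb-3 and cye-1, the 3 with an IDR peak within 1000 bp. The other 6 members had no such neighbour and no such peak. Across all genes with a value, 37.7% of the 3503 with such a neighbour had an IDR peak within 1000 bp, and 9.78% of the 16475 others. Within 500 bp the shares were 33.5% and 7.13%. A summit between such genes can lie within the window of both.

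E2F-like words lay within 50 bp of the summit at cyb-1, cyb-3, cye-1 upstream and cki-2. The share over the 1833 IDR summits at 5' ends was 17.9%, and over the 5650 pooled summits at 5' ends that missed the IDR list it was 4.62%. Windows of the same length centred 150 bp upstream of all protein-coding 5' ends held a word in 3.57% of cases. At cyb-1 the word's centre was 15 bp from the summit, at cyb-3 27 bp and at cye-1 42 bp. At cye-1 the words TTGCCGC and TTCGCGC lay 526 bp and 507 bp upstream of the gene. Having 2 or more words within 100 bp of the summit, as cyb-1, cye-1 and cki-2 had, was seen at 75 of the 1833 IDR summits at 5' ends (4.09%). The cki-2 summit missed the IDR list, so this share is not its background.

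Words and peaks did not always go together among the members. The cyd-1 word 65 bp upstream had no pooled peak over it, though the weak replicate 1 peak (12980494 to 12980789, rank 9972) spanned it. No word lay within 1000 bp upstream of cya-1, cyb-2.1, cyb-2.2 or cki-1, where 26.6% of all genes held one, and none of these 4 genes had a pooled peak within 500 bp. With 6-letter core words, which leave off the first T, cyb-2.2 had TCGCGC 2 bp from its replicate 3 summit. A further core, TGCCGC, lay within 50 bp of that summit, which is not in the IDR list. Such cores lay at 37.2% of IDR summits at 5' ends and in 7.54% of windows upstream of all genes. At cya-1 the nearest words were 1244 bp, 1761 bp and 1959 bp upstream. The second was near the pooled summit at 1819 bp, though not within 50 bp of it. The first was within 50 bp of a replicate 2 summit 1231 bp upstream (rank 6942). It was not within 50 bp of a pooled summit 1322 bp upstream (signal 19.22, rank 10122). At cki-2 further words lay 61 bp, 82 bp and 215 bp downstream of the 5' end, on the side where replicate 3 had its summit.

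Of 25 related genes in 4 lists, 12 had an IDR peak within 500 bp (48%), against 11.8% of all genes. The lists were chosen with earlier results of these data known, so this gap is no test of enrichment. Among the CDKs and their partner cks-1, 3 of 4 had one: cdk-1, the M phase kinase bound by B-type cyclins, with a signal of 64.04, cdk-4, the partner of cyclin D, with 56.05, and cdk-2, the partner of cyclin E, with 52.62. By pooled signal all 3 were weaker than the peak of cyb-3, at 80.68. Replicate ranks gave no such order. The cyb-3 peak had no match in replicate 1 and ranked 2385 and 866 in replicates 2 and 3. In replicates 1, 2 and 3, cdk-1 ranked 2071, 2280 and 5448, and cdk-2 ranked 1427, 4513 and 18597. The cdk-4 peak had no match in replicate 1 and ranked 2578 and 2076 in replicates 2 and 3. The cdk-4 summit lay nearer to F18H3.1, at 295 bp, than to cdk-4, at 457 bp.

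Of 7 other cyclin-fold genes, 3 had an IDR peak: cyl-1 (cyclin L, signal 157), cic-1 (cyclin C, signal 125) and ccnk-1 (cyclin K, signal 61.17), which encode cyclins of transcription and RNA processing kinases. Of 10 genes for the turnover of cyclins and CDK inhibitors, 3 had one: cul-4, the cullin of a ubiquitin ligase that acts on CKI-1 in worms, with a signal of 141, cul-1, the cullin of SCF ligases, with 64.33, and zyg-11, a substrate receptor of the CUL-2 ligase, with 47.93. Of the pocket protein and E2F genes, 3 of 4 had one. Their signals were 773 at efl-1, which encodes an E2F, 466 at lin-35 and 85.98 at dpl-1 itself. By pooled signal, efl-1 and lin-35 thus carried stronger peaks than any member. The replicate ranks were 59, 24 and 40 at efl-1 and 342, 66 and 85 at lin-35. In replicate 1 the lin-35 peak thus ranked below the cyb-1 peak (326) and the upstream cye-1 peak (186). Other peaks in these lists repeated less well. The ccnk-1 peak had a match only in replicate 2, at rank 1810, and the zyg-11 peak ranked 11939 in replicate 1.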

How the data were processed

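Peak lists from 3 DPL-1 ChIP-seq samples were used as the authors deposited them. Per the text deposited with the samples, the relaxed lists were input to the IDR procedure. The sources used here do not give the aligner or the caller, and the lists on build ce10 were not used. The deposited signal of each peak is the authors' measure of its strength, in units not comparable between lists, and the deposited offset gave the summit. Replicates 1 and 2 have a ChIP protocol and a protocol for sequencing in the labels, replicate 3 a single document. A control experiment that the labels call possible was not analysed here. Gene records came from Ensembl 115 (WBcel235, the same assembly as ce11) and sequence from the RefSeq copy of that assembly. Coordinates are 1-based.

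Summits were assigned to every gene with its 5' end within 500 bp, ranked by signal, and matched between lists within 100 bp, in Python 3.11.15 with pandas 2.3.3, numpy 2.4.6, Biopython 1.88 and matplotlib 3.10.9. Assignment, matching, word search and test were checked on simulated data. With 1 group, counts carry no test; phase groups were compared by an exact sign-change permutation test over 3 replicates. No counting interval can be given, since the depth is unknown. Alternatives changed the window, the gene start, the peak threshold, the matching and the replicates.

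The members and the lists of related genes were chosen with earlier results of these data known. Genes named are the members, the genes nearest to their peaks, the list members with an IDR 5' end peak, and the 3 genes with ranks closest to those of the strongest member. Other genes named beside them were chosen after their values were seen.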

Additional observations from a re-analysis of the deposited data

How the results depend on the processing

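The count of 2 members with an IDR peak depended on how a peak was assigned and on single replicates. It was 1 within 250 bp and with only the nearest gene served, cyb-3 in both. It was 1 when peaks had to rank in the top 3295 of every replicate and when only peaks above the median signal were kept, cyb-1 in both. The top 3295 peaks of replicate 1 alone gave 1 member, cyb-1, against 9.94% of all genes. Those of replicate 2 alone gave 1, cyb-3, against 11.7%, and those of replicate 3 alone gave 3, cyb-1, cyb-2.2 and cyb-3, against 10.3%. In replicate 2 the cyb-1 peak ranked 446, but its summit at 507 bp was just outside the window. RefSeq gene starts, an alternative added after seeing the data, gave 1, cyb-3. Leaving out each replicate in turn gave 1 to 2 members, with cyb-3 lost without replicate 2 and without replicate 3. Both of these settings keep replicate 1, where cyb-3 had no match, so that loss was fixed by construction. Over all genes, the count of 2351 became 1540 within 250 bp, 1198 with peaks in the top 3295 of every replicate, 1464 with peaks above the median signal and 1255 to 1515 with each replicate left out. Fewer peaks enter under each of these settings by construction. Of 38 alternatives for counts and for single peaks' ranks, 23 stayed close to the main value (within 1.5 times for a count, within 1 SD for a rank) and 15 moved. The difference between phases could not pass its test in any setting, so the test says nothing about its stability. Its mean was -0.06 within 1000 bp against -0.69 within 500 bp. It was -0.60 with cya-1 among the M phase cyclins and -1.11 without cyb-2.1 and cyb-2.2. With each replicate left out it was -0.96 to -0.38, and with 2 replicates the exact test cannot go below 0.5. Following the IDR peaks within 500 bp by summit, added after seeing the data, gave -0.80. That setting let in the cyb-1 peak of replicate 2 at 507 bp but not the cye-1 peak at 568 bp. It thus relaxed the window for the M phase cyclins only. The difference is already taken within replicates, and with 1 group there are no sample groups to pair. Unknown depth limits what a missing peak in 1 replicate can show.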

Other observations

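Base composition differed widely among the members' summits. The 101 bp around the summit held 59.4% G and C at cyb-3, 57.4% at cye-1 upstream, 41.6% at cyb-1 and 32.7% at cki-2, against a mean of 45.9% ± 7.52 (SD over the 1833 IDR summits at 5' ends). The cell cycle homology region (CHR) words TTTGAA and TTCGAA, to which LIN-54 of the DREAM complex binds, lay within 50 bp of the summit at cyb-3, 5 bp away, and at cki-2, but not at cyb-1 or at the upstream cye-1 summit. The share was 31.2% of IDR summits at 5' ends and 34.1% of windows of the same length upstream of all genes.

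The cyb-3 locus held further peaks downstream of the 5' end in replicates 2 and 3, with no summits matching within 100 bp. Replicate 2 listed a summit 1544 bp downstream of the 5' end with rank 2743, and replicate 3 listed one 1121 bp downstream with rank 2213. The first peak overlapped a replicate 3 peak with its summit at 1709 bp (rank 7822). The second overlapped a replicate 2 peak with its summit at 904 bp (rank 14892). None of these had a peak in the pooled list, and replicate 1 had none over the gene. Near T06E6.1 a weak peak repeated, with ranks of 7116 in replicate 2 and 12614 in replicate 3.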
